A study of Mus musculus with 72 samples.

Results

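The 65 genes described here encode the collagen chains, the laminin chains and a small group of extracellular matrix proteins of the mouse genome. They were taken by symbol: every gene named as a numbered collagen alpha chain or as a laminin alpha, beta or gamma chain, together with Nid1, Nid2, Hspg2, Agrn, Fn1, Thbs1, Thbs2, Sparc, Fbln1 and Fbn1. The rule found 65 of the 56691 genes in the count table, and 62 of the 65 had enough reads to be tested. The 3 that did not were Col2a1, Col19a1 and Col9a1, with 52, 45 and 9 counts summed over all 18 libraries.

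The RNA came from mouse early secondary ovarian follicles, in which an oocyte is enclosed by layers of granulosa cells and a basement membrane. Follicles were kept for 24 h without hormone or with follicle-stimulating hormone (FSH) at 1 or 10 ng/ml, as FSH21, the hypoglycosylated form, or as FSH24, the fully glycosylated form. All groups shared 1 medium, α-MEM-Glutamax with bovine serum albumin, fetuin and insulin-transferrin-selenium, and every library was made with an mRNA-seq kit. Each of the 6 groups has 3 libraries: untreated follicles numbered 1, 5 and 6, FSH21 and FSH24 at 1 ng/ml with those same numbers, untreated follicles numbered 2, 3 and 4, and FSH21 and FSH24 at 10 ng/ml with those numbers. Concentration and number set therefore cannot be told apart in the treated libraries, and each FSH group was set against the untreated libraries of its own numbers. The series calls its 3 replicates per treatment biological, but mouse strain and age, and which animals or cultures lie behind each library, are not given in the sources used here, so a p-value here speaks only of how far these libraries vary.

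A basement membrane is a thin sheet built from a laminin network and a collagen IV network, joined by nidogens and by heparan sulfate proteoglycans. Around an ovarian follicle it lies between the granulosa cells and the surrounding theca and stroma, and its laminin and collagen IV chains are known to change in kind as the follicle grows. Fibrillar collagens form the fibres of the stroma outside it, and matricellular proteins such as thrombospondins bind matrix and receptors without being structural. FSH acts on granulosa cells through a receptor that raises cyclic AMP.

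Library totals ran from 17.5 to 22.5 M counts. Levels are given as counts-per-million (CPM) after scaling for library composition, and levels of different genes are compared only after division by exon length in kilobases (CPM per kb). A gene was called when edgeR's quasi-likelihood test gave an adjusted p under 0.05 over all 18727 genes tested, and fold changes are log2 differences with their standard error (SE). The follicle label was met by its markers: the 10 granulosa markers summed to 4990 to 7208 CPM and the 8 oocyte markers to 3566 to 4553 CPM. The 12 stroma and smooth muscle markers summed to 783 to 1191 CPM. The 6 theca and steroidogenic markers summed to 963 to 1879 CPM, but most of this was Hsd3b1, at group means of 1062 to 1507 CPM, and Cyp17a1, Insl3, Lhcgr and Cyp11a1 had group means of at most 4.88 CPM. Endothelial markers were lower, at 71.6 to 107 CPM, and surface epithelium markers summed to 42.3 to 92.0 CPM. Immune markers summed to at most 3.93 CPM, and red blood cell markers to at most 0.825 CPM with Hbb-bt at 0 in all libraries. In bulk RNA, fewer cells of a type and less RNA per cell cannot be told apart.

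In untreated follicles the most abundant members per kb of exon were Thbs1, a thrombospondin, at 304 ± 23.9 CPM per kb (SD, n = 6), Col1a1, a chain of collagen I, at 276 ± 44.5, and Sparc, a collagen-binding matricellular protein, at 242 ± 12.6. The SD of Col1a1 overlaps those of both its neighbours, so its place between them is not fixed by the data. Col4a1 and Col4a2, which together make the common collagen IV network of basement membranes, followed at 189 ± 26.5 and 143 ± 20.7 CPM per kb. Col1a2, Col3a1, Col6a1, Lama1, Lamb1, Col9a2 and Lamb2 completed the first 12, from 112 ± 18.8 for Col1a2 to 42.7 ± 3.30 for Lamb2.

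How far the leading chain stood above the next differed by role. Among laminin alpha chains Lama1 had 80.3 ± 13.6 CPM per kb, and its ratio to Lama5 lay between 9.45 and 17.6 in all 18 libraries. Lamb1, at 56.4 ± 2.28, and Lamc1, at 36.7 ± 4.76, were the leading beta and gamma chains, with Lamb2 not far below Lamb1. Lama3 and Lamb3, chains of a laminin of epithelial attachment sites, were scarce, at 0.699 ± 0.100 and 0.057 ± 0.023 CPM per kb. Hspg2, the proteoglycan perlecan, was the highest linker at 35.4 ± 6.98, with the nidogen Nid1 at 31.1 ± 6.03, and Fn1, fibronectin, the highest matrix glycoprotein at 39.7 ± 5.60, with Fbln1, fibulin 1, at 36.2 ± 3.90, so neither lead exceeds the SDs. Col15a1, a multiplexin that links basement membranes to fibrils, had 32.6 ± 8.39, Col25a1, a membrane-spanning collagen, had 1.36 ± 0.139, and Col7a1, the anchoring fibril collagen, had 2.98 ± 0.826 CPM per kb.

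**Figure D1:**
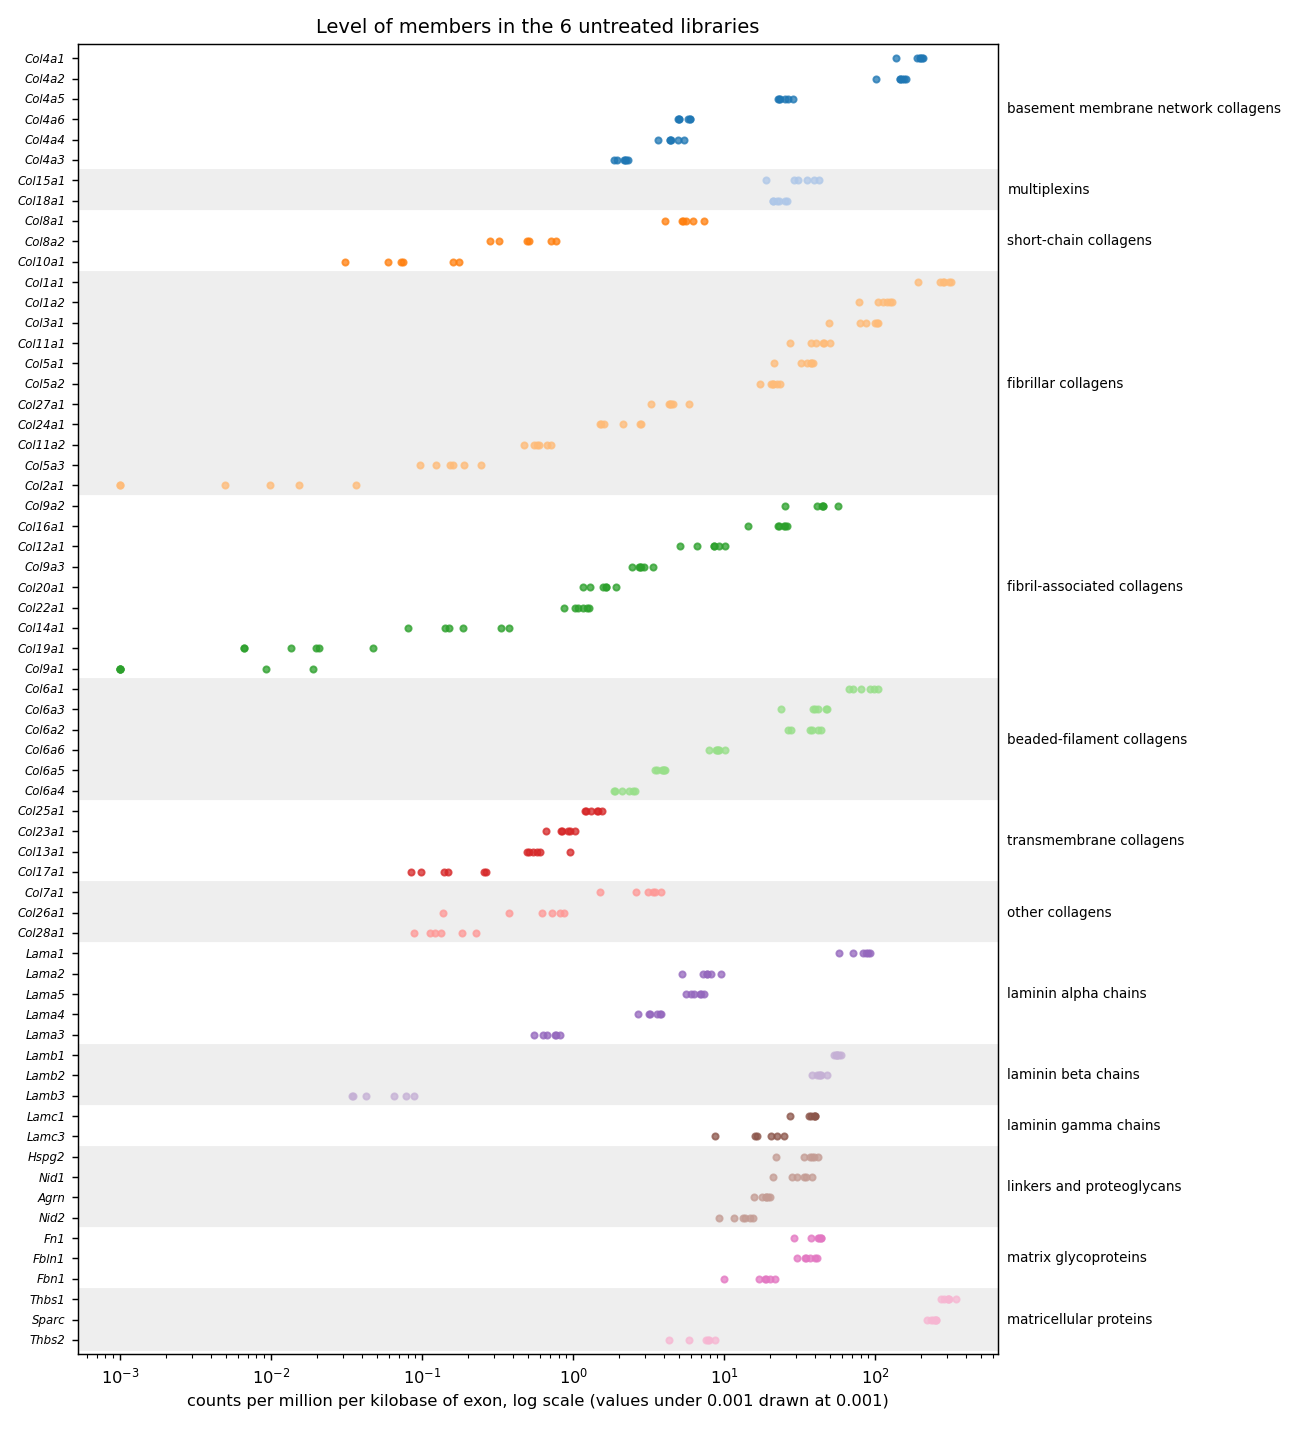
Level of members in the 6 untreated libraries (1 point per library), in CPM per kb of exon on a log axis, grouped by role. Thbs1, Col1a1, Sparc, Col4a1 and Col4a2 lie at the right, and Lamb3 and Col17a1 lie among the lowest members that were tested.

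Partner chains that assemble into 1 protein differed in how steady their ratio was. Col4a1 over Col4a2, per kb, ran from 1.25 to 1.41 across all 18 libraries. The ratio of Col4a5 to Col4a6, which form a second collagen IV network, ran from 4.19 to 5.16, that of Col6a1 to Col6a2 from 2.16 to 2.91 and that of Col1a1 to Col1a2 from 2.10 to 2.71. Wider ranges were found for Lamb1 over Lamc1, at 1.31 to 1.93, and for Col4a3 over Col4a4, chains of another collagen IV network, at 0.338 to 0.596. Col4a1 and Col4a2 lie head to head on chromosome 8 and are known to share a promoter between them. Their annotated start sites (GRCm38) are at 11312826 on the minus strand and 11312805 on the plus strand, and their first exons overlap by 22 bases. The window from 250 bases before to 50 bases after the Col4a2 start, from RefSeq on GRCm38.p6 (chr8:11312555-11312854, plus strand), is shown because both genes start in it, with the 78 bases it shares with the Col4a1 window in capitals.

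Col4a2: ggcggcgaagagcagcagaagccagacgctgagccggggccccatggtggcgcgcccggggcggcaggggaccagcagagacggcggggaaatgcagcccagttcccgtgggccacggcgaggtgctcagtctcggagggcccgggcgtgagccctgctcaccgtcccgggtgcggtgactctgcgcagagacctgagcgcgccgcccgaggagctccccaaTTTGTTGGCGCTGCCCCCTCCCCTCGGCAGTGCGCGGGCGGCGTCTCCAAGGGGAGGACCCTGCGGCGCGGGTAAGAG

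**Figure D2:**
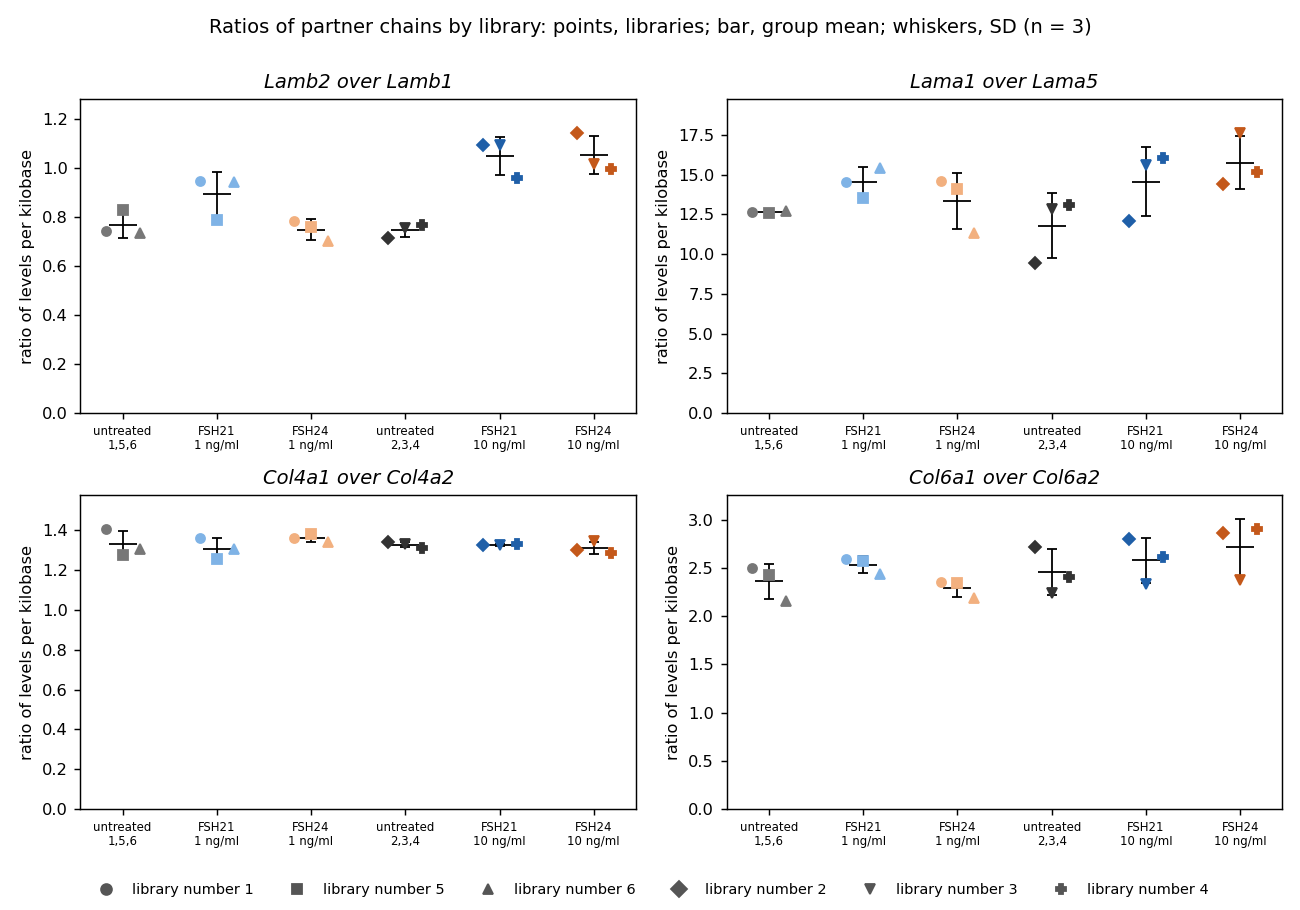
Ratios of chain levels per kilobase by library. Col4a1 over Col4a2 and Col6a1 over Col6a2 are partner chains. Lamb2 over Lamb1 and Lama1 over Lama5 are laminin chains of the same kind. Points are libraries, bars are group means and whiskers the SD (n = 3). Col4a1 over Col4a2 stays between 1.25 and 1.41, while Lamb2 over Lamb1 lies at 0.716 to 0.767 in untreated libraries 2, 3 and 4 and at 0.957 to 1.14 in all 6 libraries at 10 ng/ml.

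Before the hormone comparisons, libraries of different numbers stood apart in level. In the untreated group numbered 2, 3 and 4, library 2 had the lowest level of the 3 for 47 of the 62 tested members. The library numbered 2 was also lowest for 37 members in FSH21 at 10 ng/ml and for 38 in FSH24 at 10 ng/ml. Library 3 was the highest for 42 members in that untreated group, for 39 in FSH21 and for 18 in FSH24 at 10 ng/ml. The share of all genes in such counts is not given here, so they do not speak of the members alone. The members summed to 12817 CPM in untreated library 2, against 18290 and 16804 CPM in untreated libraries 3 and 4. The fibrillar collagens alone summed to 3480 CPM in it, against 5812 and 5100 CPM. Stroma markers moved with this, at 852 CPM in untreated library 2 against 1191 and 1070 CPM. Results at 10 ng/ml are given with and without the 3 libraries numbered 2, an alternative chosen after these values were seen. The libraries numbered 3 were left out only singly.

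At 10 ng/ml FSH21, 10 of the 62 tested members rose and 1 fell. That is 17.7%, against 10.2% of all genes tested (5.96% higher, 4.21% lower). Those that rose were Col8a1, Col17a1, Col18a1, Col24a1, Col6a1, Col6a2, Lama3, Lamb2, Lamb3 and Thbs1, and Col11a1 fell. The set did not move one way as a whole: 24 members had a log2 fold change above 0 and 38 below it, with a median of -0.11, against a median of 0 over all genes tested. Without hormone, untreated libraries 2, 3 and 4 against 1, 5 and 6 gave 11 members above 0 and 51 below, with a median of -0.13. In 17 members the treated and untreated libraries did not overlap, 14 higher and 3 lower, a share of 27.4% against 27.7% of all genes (15.7% higher, 12% lower). With the replicate number as a block, since same-numbered libraries of these groups deviated together, 21 members were called, 12 higher and 9 lower, against 15.1% of all genes (8.43% higher, 6.62% lower). The 9 lower were Col11a1, Col4a1, Col4a2, Col1a2, Col9a2 and, named after their values were seen, Col16a1, Col27a1, Lamc3 and Nid2, with Fbln1 and Thbs2 added to those that rose without the block.

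FSH24 at 10 ng/ml gave 7 members higher and 1 lower, which is 12.9%, against 8.42% of all genes (5.12% higher, 3.3% lower). Col8a1, Col17a1, Col18a1, Col24a1, Lama3, Lamb2 and Thbs1 rose and Col11a1 fell. Of the 62 members 25 had a log2 fold change above 0 and 37 below it, with a median of -0.07 against 0 over all genes. Groups did not overlap for 14 members, 12 higher and 2 lower, a share of 22.6% against 24.5% of all genes (13.8% higher, 10.7% lower). The FSH21 and FSH24 groups share their untreated libraries, so their values are set side by side below and not counted as independent.

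Col8a1, a short-chain collagen that forms hexagonal lattices in the matrix of vessels and other tissues, had the steepest rise among members with over 10 CPM. It lies on chromosome 16 (57624258 to 57754737, minus strand). It stood at 48.7, 41.4 and 41.7 CPM in untreated libraries 2, 3 and 4, at 121, 133 and 133 CPM in FSH21 at 10 ng/ml and at 111, 141 and 149 CPM in FSH24 at 10 ng/ml. All 6 treated libraries lay above all 6 untreated ones, the highest of which had 57.5 CPM. The log2 fold change was 1.56 (SE 0.17, edgeR adjusted p = 4.13e-05) for FSH21, a fold of 2.94, and 1.61 (SE 0.17, edgeR adjusted p = 5.24e-05) for FSH24, a fold of 3.04. Col8a2 and Col10a1, the other 2 short-chain collagens, were below 4.94 CPM in every library and were not called.

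The RefSeq promoter table on GRCm38.p6 held windows of 300 bases for 47 of the 65 members, among them 9 of the 11 that were called. Both strands were searched for the letters TGACGTCA (the cyclic AMP response element), TGANTCA (an activator protein 1 site) and GGGCGG (a GC box), which do not contain each other. A GC box was found in windows of 30 of the 47 members and of 4 of the 9 called, against 35.7% of all 32851 windows. Col8a1 held 4 of them, read as CCGCCC on the strand shown (chr16:57754688-57754987, minus strand), and its window is printed as that of the member with the lowest adjusted p, with the GC boxes in capitals. A match is a description of the letters and not of binding.

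Col8a1: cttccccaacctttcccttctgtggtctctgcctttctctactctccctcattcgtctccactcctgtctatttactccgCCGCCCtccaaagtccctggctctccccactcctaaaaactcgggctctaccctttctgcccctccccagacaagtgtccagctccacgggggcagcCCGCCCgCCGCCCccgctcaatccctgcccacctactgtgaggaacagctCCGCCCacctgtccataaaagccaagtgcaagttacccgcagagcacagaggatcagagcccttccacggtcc

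Among the laminins, Lamb2, the beta chain that replaces the Lamb1 product in mature basement membranes, rose with both forms. It had 231, 258 and 261 CPM in untreated libraries 2, 3 and 4, then 333, 320.0 and 301 CPM in FSH21 and 338, 308 and 323 CPM in FSH24 at 10 ng/ml, so that every treated library was above every untreated one. The change was modest, 0.34 (SE 0.07, edgeR adjusted p = 0.00223) for FSH21 and 0.37 (SE 0.07, edgeR adjusted p = 0.00162) for FSH24, a fold of 1.27 for FSH21. Without the 3 libraries numbered 2 the call was lost, at 0.25 and 0.28 with edgeR adjusted p of 0.0590 and 0.0516. Lamb1 went from 526, 558 and 556 CPM to 496, 477 and 512 CPM with FSH21, a log2 fold change of -0.14 that was not called (edgeR adjusted p = 0.239). Per kb, Lamb2 over Lamb1 therefore went from 0.716 to 0.767 in untreated libraries to 0.957 to 1.09 with FSH21 and 0.998 to 1.14 with FSH24, without overlap.

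Lama3 and Lamb3, an alpha and a beta chain, were low, and Lama3 rose with both forms and Lamb3 with FSH21. Lama3 had 8.19, 5.91 and 6.74 CPM untreated, 17.2, 10.1 and 12.7 CPM with FSH21 and 17.2, 11.3 and 16.4 CPM with FSH24 at 10 ng/ml. The library numbered 2 was the highest of its 3 in every group here, and the treated libraries all lay above the untreated ones. Its log2 fold change was 0.94 (SE 0.24, edgeR adjusted p = 0.0153) for FSH21 and 1.11 (SE 0.24, edgeR adjusted p = 0.00609) for FSH24. The FSH21 call was lost in 4 of 14 alternatives, without the 3 libraries numbered 2 (0.85, edgeR adjusted p = 0.0787) and without FSH21 library 2 (edgeR adjusted p = 0.0989), untreated library 3 (0.0835) or untreated library 4 (0.0704) alone. The FSH24 call held in all 14.

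Lamb3 rests on 5 to 43 counts per library. It had 0.515, 0.229 and 0.588 CPM untreated and 1.79, 0.78 and 1.39 CPM with FSH21, a log2 fold change of 1.55 (SE 0.49, edgeR adjusted p = 0.0494), and 2.04, 0.792 and 0.705 CPM with FSH24 (1.40, edgeR adjusted p = 0.0885, not called). The groups did not overlap, but the FSH21 call was lost in 10 of 13 alternatives, among them those without untreated library 2, 3 or 4 or FSH21 library 2 or 4 (edgeR adjusted p = 0.0893, 0.192, 0.0788, 0.197 and 0.129). Lama1, at 0.19 and 0.32 for FSH21 and FSH24 (edgeR adjusted p = 0.532 and 0.231), and Lamc1, at -0.11 and 0.03, were not called.

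Of the basement membrane collagens, the 6 collagen IV chains gave no call with either form. Col4a1 had 1020, 1487 and 1420 CPM untreated, 956, 1162 and 1036 CPM with FSH21 and 953, 1249 and 1263 CPM with FSH24. Its groups overlapped only through untreated library 2, and its log2 fold change with FSH21 was -0.32 (SE 0.14, edgeR adjusted p = 0.173). Col4a2 had the same value, -0.32 (SE 0.14, edgeR adjusted p = 0.202). With the replicate block both were called lower, at -0.30 with edgeR adjusted p of 0.0101 and 0.00798, and without the 3 libraries numbered 2 both were called at -0.41 (edgeR adjusted p = 0.0259 and 0.0380).

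The 2 multiplexins, whose C-terminal fragments are known as endostatin for Col18a1 and restin for Col15a1, parted. Col18a1 had 148, 156 and 163 CPM untreated, 231, 238 and 219 CPM with FSH21 and 207, 189 and 229 CPM with FSH24. All treated libraries were above all 6 untreated ones, which reached 184 CPM. Its log2 fold change was 0.56 (SE 0.09, edgeR adjusted p = 5.94e-04) for FSH21 and 0.42 (SE 0.09, edgeR adjusted p = 0.00753) for FSH24. The FSH24 call was lost without the 3 libraries numbered 2 and without FSH24 library 4, at 0.38 and 0.33 with edgeR adjusted p of 0.108 and 0.0623. Col15a1 had 121, 250 and 183 CPM untreated against 122, 128 and 103 CPM with FSH21 and 113, 130 and 152 CPM with FSH24. Untreated library 2 lay among the treated ones, and the values of -0.65 and -0.49 were not called (edgeR adjusted p = 0.0593 and 0.178). Without the 3 libraries numbered 2, Col15a1 was called lower with FSH21, at -0.91 (edgeR adjusted p = 0.00502).

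Col17a1, a membrane-spanning collagen of hemidesmosomes, had the largest fold of all members from the lowest level but 1 among those called. It had 0.842, 0.504 and 0.588 CPM in untreated libraries 2, 3 and 4, then 3.13, 1.79 and 3.88 CPM with FSH21 and 3.71, 2.18 and 2.59 CPM with FSH24, on 11 to 81 counts per library over all 18. The treated libraries at 10 ng/ml all exceeded every untreated library. The log2 fold change was 2.17 (SE 0.39, edgeR adjusted p = 9.46e-04) for FSH21, a fold of 4.51, and 2.12 (SE 0.39, edgeR adjusted p = 0.00157) for FSH24. Part of its size rests on the untreated group: untreated libraries 1, 5 and 6 had 1.58, 0.89 and 1.55 CPM, all above libraries 2, 3 and 4, a log2 difference between the untreated sets of -1.05 (edgeR adjusted p = 0.901, no member called, against 0% of all genes).

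Fibrillar collagens split between 2 chains, at 41.1 ± 8.13 CPM per kb in untreated follicles for Col11a1 and 2.06 ± 0.609 for Col24a1. Col11a1, a chain of the fibril-nucleating collagen XI, fell. It had 347, 572 and 513 CPM untreated, 167, 227 and 209 CPM with FSH21 and 207, 265 and 289 CPM with FSH24 at 10 ng/ml. Even the low untreated library 2 lay above all 6 treated ones, and within each group library 2 was the lowest. The log2 fold change was -1.25 (SE 0.20, edgeR adjusted p = 9.38e-04) for FSH21, or 42.1% of the untreated level, and -0.91 (SE 0.20, edgeR adjusted p = 0.00996) for FSH24. Both calls held in all 14 alternatives.

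Col24a1, a fibrillar collagen known from bone and cornea, rose. It had 11.5, 16.4 and 21.1 CPM untreated, 23.1, 38.2 and 36.8 CPM with FSH21 and 23.3, 41.3 and 44.8 CPM with FSH24. The number 2 library was lowest in each group, and untreated library 4 came close to FSH21 library 2 without overlap. The log2 fold change was 1.00 (SE 0.29, edgeR adjusted p = 0.0410) for FSH21 and 1.16 (SE 0.29, edgeR adjusted p = 0.0220) for FSH24, and each call was lost in 6 of 14 alternatives. Among these were the fits without untreated library 2 or 3 or without the treated library 3 or 4, with edgeR adjusted p of 0.150, 0.111, 0.139 and 0.136 for FSH21 and 0.0962, 0.0694, 0.0703 and 0.0989 for FSH24. The most abundant fibrillar chains per kb were not called: Col1a1 at -0.28, Col1a2 at -0.27 and Col3a1 at -0.25 with FSH21 (edgeR adjusted p = 0.375, 0.362 and 0.706). Col3a1 shares 141 exonic bases with another annotated gene on its strand, so part of its reads are uncertain.

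Among the 47 members with a promoter window, Col24a1 was the only one with the cyclic AMP response element, which 1.79% of all windows held. Its window is shown for that reason, with the element in capitals (chr3:145292222-145292521, plus strand).

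Col24a1: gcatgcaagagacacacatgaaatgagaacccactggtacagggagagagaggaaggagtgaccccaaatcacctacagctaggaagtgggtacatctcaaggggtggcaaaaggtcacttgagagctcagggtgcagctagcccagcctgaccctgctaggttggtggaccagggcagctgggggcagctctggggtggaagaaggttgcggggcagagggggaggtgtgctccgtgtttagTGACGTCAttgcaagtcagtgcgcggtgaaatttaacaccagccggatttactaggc

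Col6a1 and Col6a2, 2 of the chains of beaded-filament collagen VI, lie near each other on chromosome 10 and moved together with FSH21. Col6a1 had 314, 429.9 and 402 CPM untreated, 676, 832 and 1013 CPM with FSH21 and 649, 776 and 618 CPM with FSH24. Col6a2 had 220.2, 365 and 317 CPM untreated, 459, 677 and 738 CPM with FSH21 and 431, 621 and 404 CPM with FSH24. For both genes all 6 treated libraries were above the untreated ones of the same numbers. With FSH21 both rose, Col6a1 by 1.14 (SE 0.25, edgeR adjusted p = 0.00901) and Col6a2 by 1.06 (SE 0.29, edgeR adjusted p = 0.0350). With FSH24 neither was called, at 0.83 and 0.69 (edgeR adjusted p = 0.0551 and 0.188), and the difference between the forms was itself not called. Without the 3 libraries numbered 2 the Col6a1 log2 fold change with FSH21 was again 1.14, but on fewer libraries it was not called (edgeR adjusted p = 0.0649). The Col6a2 call was lost in 7 of 14 alternatives, among them that one (1.05, edgeR adjusted p = 0.112) and those without untreated library 2, 3 or 4 or FSH21 library 3 or 4 (edgeR adjusted p = 0.134, 0.0503, 0.0956, 0.105 and 0.130). The other 4 collagen VI chains, Col6a3 among them as the third chain of the classic collagen VI protein, were not called.

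Col6a1 was the only 1 of the 47 members with an activator protein 1 site in its window (7.81% of all windows), printed for that reason with the site in capitals (chr10:76725995-76726294, minus strand).

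Col6a1: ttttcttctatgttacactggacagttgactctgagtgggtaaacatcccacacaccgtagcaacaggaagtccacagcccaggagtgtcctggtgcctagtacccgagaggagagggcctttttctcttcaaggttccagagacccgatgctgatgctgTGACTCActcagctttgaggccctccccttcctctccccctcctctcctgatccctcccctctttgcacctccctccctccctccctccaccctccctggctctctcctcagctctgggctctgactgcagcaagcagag

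Col9a2, a chain of fibril-associated collagen IX, came close to the threshold. It had 77.9, 140.1 and 139 CPM untreated, 29.4, 68.3 and 58.9 CPM with FSH21 and 31.8, 72.0 and 54.4 CPM with FSH24. All treated libraries were below all untreated ones. Its log2 fold change was -1.18 (SE 0.35, edgeR adjusted p = 0.0508) and -1.17 (SE 0.35, edgeR adjusted p = 0.0596), so it was not called. It was called lower with both forms without the 3 libraries numbered 2, at -1.13 (edgeR adjusted p = 0.0163) and -1.15 (edgeR adjusted p = 0.0210). Its partner Col9a3 was not called, and Col9a1 was not tested.

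Thbs1, thrombospondin 1, an inhibitor of vessel growth and an activator of latent TGF-beta, was both the most abundant member per kb and one that rose. It had 1837, 1743 and 1664 CPM untreated, 2479, 2555 and 2335 CPM with FSH21 and 2588, 2374 and 2649.9 CPM with FSH24 at 10 ng/ml. All treated libraries exceeded all 6 untreated ones, which reached 2089.9 CPM. The fold was 1.41 for FSH21 (SE of the log2 value 0.08, edgeR adjusted p = 2.53e-04) and 1.45 for FSH24 (SE 0.08, edgeR adjusted p = 1.56e-04), and both calls held in all 14 alternatives. Sparc, at -0.12 with FSH21 (edgeR adjusted p = 0.434), and Fn1, at -0.15 (edgeR adjusted p = 0.610), were not called, nor was Hspg2, at -0.24 (edgeR adjusted p = 0.484). Thbs1 shares 208 exonic bases with an antisense gene and Lama3 197. Of members called lower only in some fits, Fbn1 shares more, 2442 bases or 20.1% of its exons, as do Nid2 (437) and Lamc3 (382). Whether the counting used strand is not given in the sources used here, so reads from these stretches cannot be assigned.

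**Figure D3:**
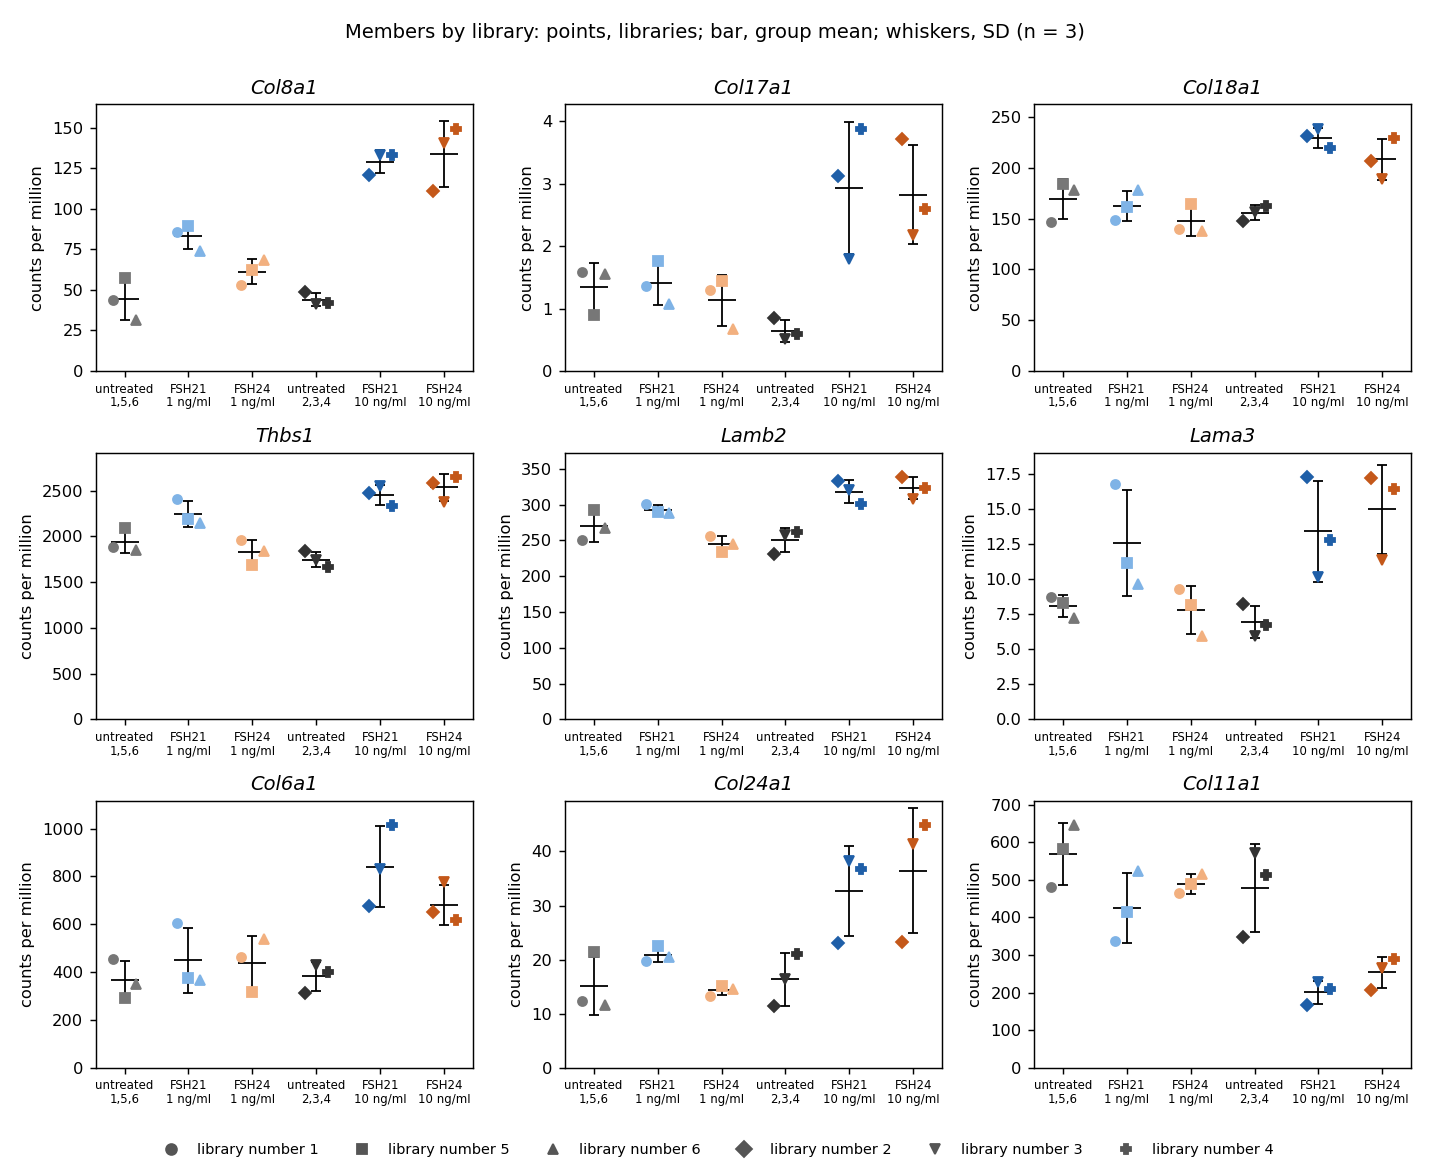
CPM of 9 members in all 18 libraries; points are libraries, shaped by their number, bars are group means and whiskers the SD (n = 3). For Col8a1, Thbs1, Col18a1 and Col17a1 all 6 libraries at 10 ng/ml lie above all 6 untreated ones, and for Col11a1 they lie below.

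Without the 3 libraries numbered 2, most FSH21 calls were lower and most FSH24 calls stayed higher, and no called member changed sign. FSH21 at 10 ng/ml then gave 15 called members, 5 higher and 10 lower, against 6.25% of all genes, and 6 of the 15 were among the 11 of the full set. The 5 higher were Col8a1, Col17a1, Col18a1, Thbs1 and Col24a1. The 10 lower were Col11a1, Col9a2, Col15a1, Col4a1 and Col4a2 and, named after their values were seen, Fbn1 (-0.50), Hspg2 (-0.49), Col6a3 (-0.39), Col16a1 (-0.35) and Col5a1 (-0.34). Without untreated library 2 alone, 18 members were called, 8 higher and 10 lower, and without untreated library 3 alone there were 7, 6 higher and 1 lower. The share of all genes called in those fits is not given here, so these counts do not speak of the members alone. The members' median log2 fold change was -0.18 without the number 2 libraries. FSH24 at 10 ng/ml gave 7 calls, 5 higher and 2 lower, against 4.06% of all genes, and 6 of these were among the 8 of the full set. Without the number 2 libraries the split of the all-gene shares into higher and lower is not given here. The direction of the members' calls is therefore not set against that of all genes. The 12 stroma markers were lower in the treated groups by median, -0.26 with FSH21 (all 12 below 0) and -0.12 with FSH24 (10 below 0), and none was called with all 18 libraries. Their summed level was 852 to 1191 CPM untreated, 783 to 950.2 CPM with FSH21 and 816 to 1041 CPM with FSH24, and their part in the lower collagen values was not tested.

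**Figure D4:**
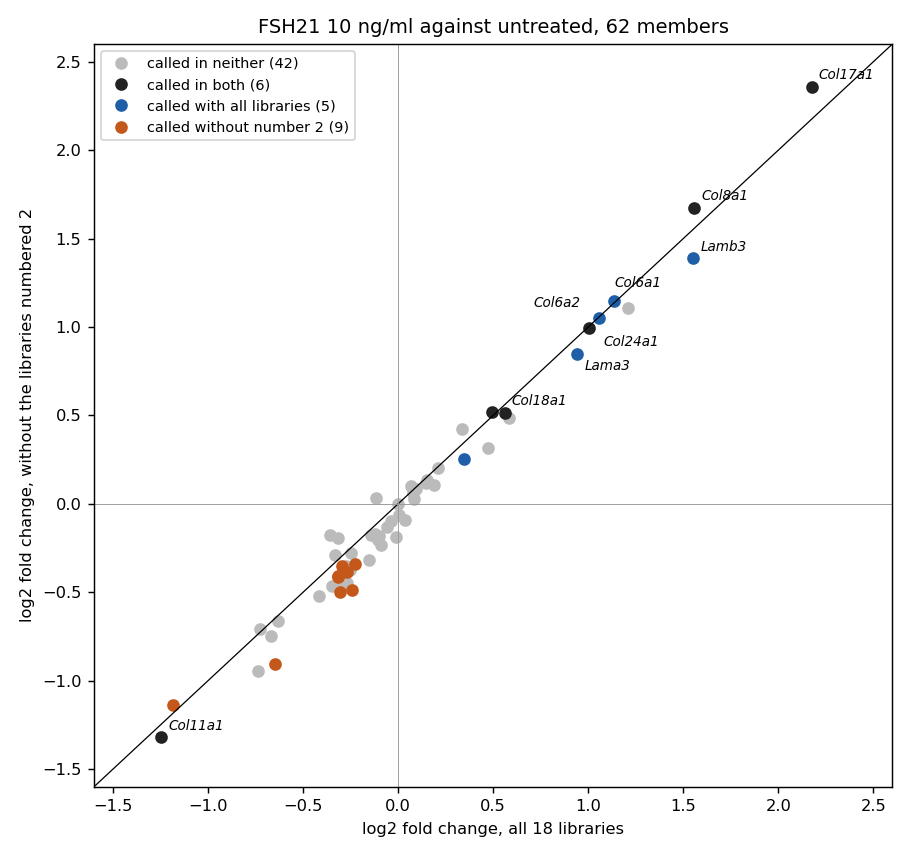
Log2 fold change of the 62 tested members for FSH21 at 10 ng/ml against untreated follicles, with all 18 libraries (horizontal) and without the 3 libraries numbered 2 (vertical); the diagonal marks equal values. 6 members are called in both, 5 with all libraries alone and 9, all lower, without number 2 alone.

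At 1 ng/ml no member was called. FSH21 gave 0 of 62 by edgeR (7 at an unadjusted p under 0.05, and 1, Col8a1, by DESeq2), against 0.128% of all genes, and FSH24 gave 0 (9 at an unadjusted p under 0.05, 0 by DESeq2), against 0% of all genes. At that unadjusted threshold 7.32% of all genes passed with FSH21 and 5.98% with FSH24. The members' median log2 fold change was -0.09 with FSH21 (44 below 0) and -0.10 with FSH24 (41 below 0). Col8a1 came nearest. It had 43.9, 57.5 and 31.6 CPM in untreated libraries 1, 5 and 6, 85.6, 89.4 and 74.0 CPM with FSH21 and 53.2, 62.1 and 68.5 CPM with FSH24. The FSH21 libraries all lay above the untreated ones, while an FSH24 library lay below untreated library 5. The log2 fold change was 0.90 (SE 0.17, edgeR adjusted p = 0.0666) for FSH21 and 0.47 (SE 0.17, edgeR adjusted p = 0.815) for FSH24.

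Thbs1, Lama3 and Col8a1 were the 3 members whose FSH21 libraries at 1 ng/ml were all above the untreated ones. In 9 members they lay wholly below. Together these were 19.4% of members against 13% of all genes (6.75% higher, 6.23% lower). The 9 lower were Col4a1, Col15a1, Col9a2, Col27a1, Col16a1, Col20a1, Col9a3, Col11a2 and Col23a1, most of them named after their values were seen. None of the 9 was called without the replicate block. Thbs1 had 1885, 2089.9 and 1856 CPM untreated and 2407, 2191 and 2143 CPM with FSH21 (0.21, edgeR adjusted p = 0.472). Lama3 had 8.73, 8.29 and 7.21 CPM untreated and 16.8, 11.1 and 9.66 CPM with FSH21 (0.63, edgeR adjusted p = 0.506). Col11a1, at -0.42, Col9a2, at -0.65, and Lamb2, at 0.12, were not called, and Col17a1 and Col18a1 were near 0 at 0.07 and -0.06. With FSH24 at 1 ng/ml Thbs1 stood at -0.09, Lamb2 at -0.14, Col18a1 at -0.20 and Col17a1 at -0.25, none of them called.

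The difference between the effect at 10 ng/ml and the effect at 1 ng/ml, each against its own untreated libraries, was called for 5 members with FSH24, all higher, or 8.06% of members against 2.45% of all genes. They were Thbs1, Lamb2, Col18a1, Col8a1 and Col17a1. Thbs1 had 0.54 at 10 ng/ml and -0.09 at 1 ng/ml, a difference of 0.63 (SE 0.11, edgeR adjusted p = 0.00407), and Lamb2 had 0.37 and -0.14, a difference of 0.51 (SE 0.10, edgeR adjusted p = 0.00799). Col8a1 had 1.61 and 0.47, a difference of 1.14 (SE 0.24, edgeR adjusted p = 0.0235). For Col17a1 the difference of 2.37 (SE 0.54, edgeR adjusted p = 0.0241) includes the difference of -1.05 between the untreated sets. Without the 3 libraries numbered 2, 2 of the 5 calls were left, Thbs1 (edgeR adjusted p = 0.0178) and Col8a1 (edgeR adjusted p = 0.0456), against 1.07% of all genes. Without FSH24 library 4 at 10 ng/ml there were also 2, Thbs1 and Lamb2. The Col8a1 call was lost there (edgeR adjusted p = 0.0739) and without the low-count filter (0.0668). It was also lost without FSH24 library 1 or 5 at 1 ng/ml (0.0595 and 0.0613) or untreated library 3 or 4 (0.0538 and 0.0728). The Lamb2 call was lost only without the 3 libraries numbered 2. There were 3 calls without untreated library 3, 4 or 6, or without FSH24 library 1 at 1 ng/ml. For fits that left out 1 library the share of all genes is not given here. With FSH21 no member was called by edgeR for this difference (8 at an unadjusted p under 0.05, and 2, Col17a1 and Col18a1, by DESeq2), against 0.272% of all genes. At the unadjusted threshold 7.01% of all genes passed. Col18a1 came nearest at 0.62 (SE 0.13, edgeR adjusted p = 0.0576).

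**Figure D5:**
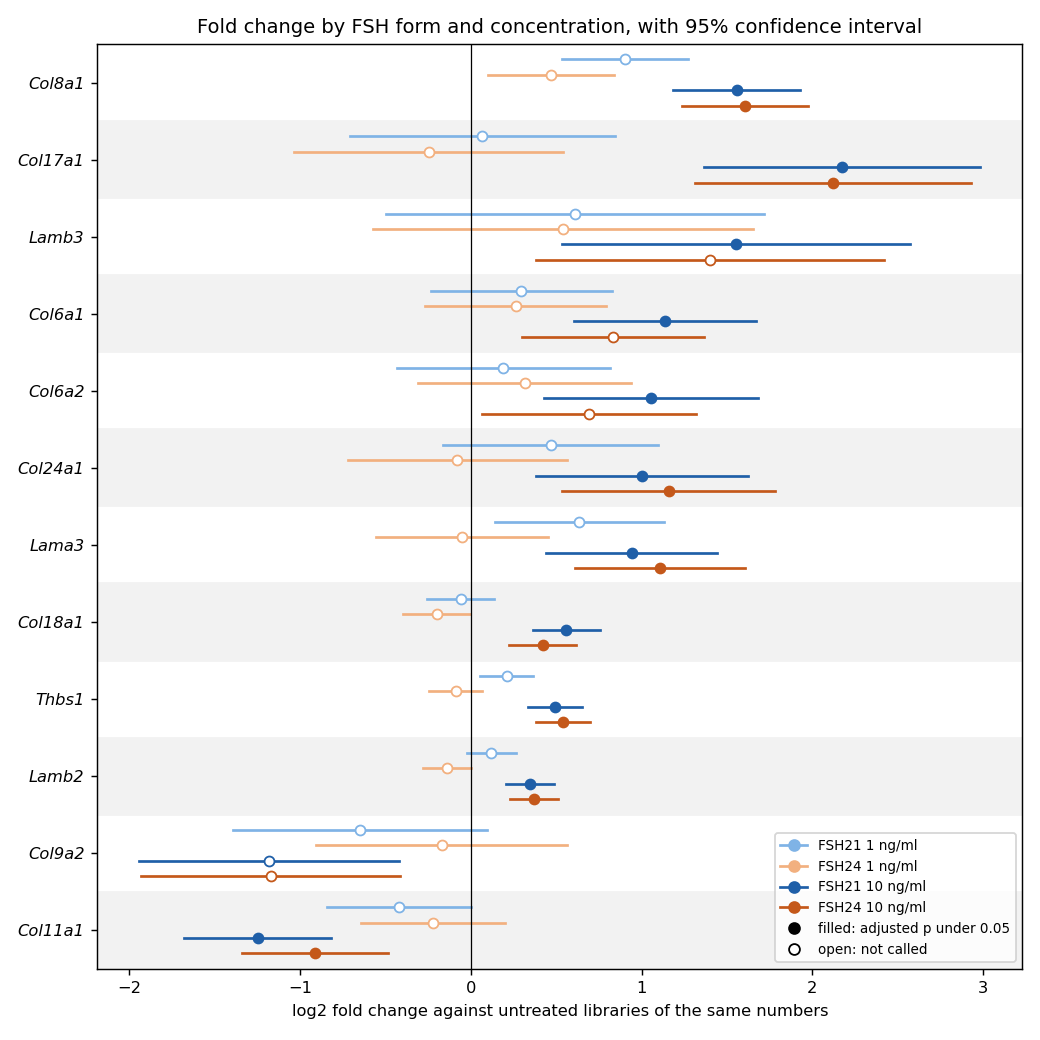
Log2 fold change against untreated libraries of the same numbers, with its 95% confidence interval, for 12 members in the 4 FSH groups; filled points are called (edgeR adjusted p under 0.05). Called points occur only at 10 ng/ml, and the FSH21 and FSH24 intervals at that concentration overlap for every member drawn.

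FSH21 and FSH24 were compared directly at each concentration, 62 members at each and p-values adjusted over all genes. At 10 ng/ml no member was called by edgeR (1 at an unadjusted p under 0.05, Fn1, and 0 by DESeq2), against 0% of all genes (2.19% at the unadjusted threshold). Of the 62 members 16 had a log2 difference above 0 and 46 below it, with a median of -0.05. That is 74.2% below 0, against 50.7% of all genes, a lean that was not tested. The log2 difference of FSH21 from FSH24 was -0.05 for Col8a1 (95% interval -0.41 to 0.31), -0.05 for Thbs1 (-0.20 to 0.11) and -0.03 for Lamb2 (-0.17 to 0.12). Wider intervals were left for Col17a1, 0.05 (-0.68 to 0.78), and Col11a1, -0.33 (-0.76 to 0.09). A p-value that misses the threshold does not show that the 2 forms act alike. Fn1, fibronectin, had 397, 423 and 329 CPM with FSH21 and 446, 444 and 529 CPM with FSH24 at 10 ng/ml, without overlap, a log2 difference of -0.30 that was not called (edgeR adjusted p = 1).

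At 1 ng/ml again no member was called by edgeR between the forms (9 at an unadjusted p under 0.05, and 2, Thbs1 and Lamb2, by DESeq2), against 0.0107% of all genes (9.45% at the unadjusted threshold). In 10 members, or 16.1% against 14.9% of all genes, the FSH21 and FSH24 libraries did not overlap. Thbs1 had 1956, 1684 and 1842 CPM with FSH24, all below its 3 FSH21 libraries, a log2 difference of 0.30 (95% interval 0.14 to 0.46, edgeR adjusted p = 0.185). Lamb2 had 301, 289 and 288 CPM with FSH21 and 256, 234 and 245 CPM with FSH24, a log2 difference of 0.26 (0.12 to 0.40, edgeR adjusted p = 0.192). Lama3, at 0.68 (0.19 to 1.18), and Col8a1, at 0.44 (0.07 to 0.80), were also higher in all FSH21 libraries without being called (edgeR adjusted p = 0.358 and 0.437).

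Genes that make, cross-link or read this matrix were taken from 3 further lists. Of 31 tested genes of collagen synthesis and cross-linking, 2 rose and 4 fell at 10 ng/ml with either form, where 10.2% of all genes were called with FSH21 and 8.42% with FSH24. Fkbp10, a collagen chaperone, rose by 0.26 with FSH21 and 0.22 with FSH24, and Bmp1, the procollagen C-proteinase, by 0.45 and 0.44. P3h2, a prolyl 3-hydroxylase of collagen IV, fell by 1.42 and 1.03, Adamts2, the procollagen N-proteinase, by 1.02 and 0.89, Crtap, a partner of prolyl 3-hydroxylase, by 0.45 and 0.44, and Colgalt1, a collagen galactosyltransferase, by 0.29 and 0.32. At 1 ng/ml FSH21, Adamts2 fell by 0.47 (edgeR adjusted p = 0.0427).

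Of 24 other basement membrane genes, Papln (1.09 and 1.05), Ltbp1 (0.78 and 0.73), Matn2 (0.70 and 0.65) and Smoc1 (0.30 and 0.34) rose with FSH21 and FSH24, and Fras1 fell by 0.87 with FSH21, which makes 5 and 4 calls. Of 28 matrix receptors, 1 rose and 6 fell with FSH21, and 3 rose and 3 fell with FSH24, to be read against the same 10.2% and 8.42% of all genes. Itga6, the integrin alpha chain of laminin receptors, rose by 1.36 and 1.31, and by 0.71 at 1 ng/ml FSH21 (edgeR adjusted p = 0.0163). Itgav, the alpha chain of fibronectin and vitronectin receptors, fell by 0.72 and 0.44, Sdc1, a cell surface proteoglycan, by 0.48 with both, and Cd36, a thrombospondin receptor, by 0.52 and 0.54.

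Markers of other cell types were measured beside these members at 10 ng/ml. Of 6 tested surface epithelium markers 1 rose, Krt8, by 0.97 and 0.91, and the list's sum went from 42.3 to 51.7 CPM untreated to 82.1 to 83.2 CPM with FSH21 and 74.8 to 86.2 CPM with FSH24. Krt8 made up most of that sum, at means of 36.8, 72.0 and 69.2 CPM. Lhx9 had means of 3.30, 1.45 and 2.04 CPM and was not called (edgeR adjusted p = 0.269 and 0.580), except lower with FSH21 under the replicate block (edgeR adjusted p = 0.0203), and Upk3b had 0.399, 0.178 and 0.464 CPM. Msln, Krt7 and Krt19, which mark that epithelium more narrowly, each averaged under 1 CPM in these 3 groups, and their part in the Col17a1, Lama3 and Lamb3 values was not tested. With FSH24 at 1 ng/ml, library 6 had a surface epithelium sum of 92.0 CPM, the highest of all 18 libraries. Libraries 1 and 5 of that group had 51.2 and 54.0 CPM. Library 6 also had the lowest granulosa sum of all, 4990 CPM. The part of these markers in the FSH24 values at 1 ng/ml was not tested. At 10 ng/ml, 3 of 10 granulosa markers rose and 2 fell with each form. Of 6 theca and steroidogenic markers Cyp17a1 and Star rose. These counts stand against 10.2% and 8.42% of all genes. Of 7 endothelial and 2 immune markers tested none was called.

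The 8 oocyte markers were all below 0 with both forms, at medians of -0.13 and -0.16, and none was called. Their sum was 4358 to 4553 CPM in untreated libraries 2, 3 and 4, 3804 to 4288 CPM with FSH21 and 3831 to 4074 CPM with FSH24, without overlap. Untreated libraries 1, 5 and 6 had 3566 to 4188 CPM, a range that overlaps the treated ones. All 8 markers were higher in untreated libraries 2, 3 and 4 than in 1, 5 and 6, at a median of 0.21, and none was called. With the replicate block Zp3 and Ooep were called lower with FSH21 (edgeR adjusted p = 0.0374 and 0.0479). The part of the oocyte markers in the members' values was not tested.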

How the data were processed

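Sequenced RNA from 18 libraries, each deposited as 4 lanes (72 samples), was read from a single table in which the authors deposited expected counts by gene, made with RSEM per the file headers. Per the submitters' processing notes, reads were processed with bcl2fastq, FastQC and STAR 2.7 on mm10. The RSEM version, gene annotation and strand setting are not given in the sources used here. The 4 lanes of a library were counted as 1 replicate. Deposited expected counts were rounded to whole numbers, since 33.9% of the values above 0 were not whole. Depth was 17.5 to 22.5 M counts a library. The column of untreated number 4 is written with a shorter prefix than its sample titles and was matched by its number.

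Genes passed edgeR's filter (filterByExpr by group, minimum count 10), leaving 18727 of 56691. edgeR 4.0.16 in R 4.3.3 fitted 6 groups with TMM scaling and its robust quasi-likelihood test, without a replicate block, and p-values were Benjamini-Hochberg adjusted over all genes tested. The fit was tested on simulated data first. Members were named with values where called, where among the 12 highest per kb, where highest of their role, or where p was under 0.01 in both 10 ng/ml comparisons, and partner chains and others named beside them were chosen after their values were seen. The members, lists and tests were chosen with earlier results of these data known. Same-numbered libraries deviated together with r over 0.1 in all 3 pairs only for FSH21 at 10 ng/ml and its untreated libraries (0.193, 0.206 and 0.126). Alternatives were DESeq2 1.42.0, other scalings and filters, a fit of fewer libraries, the replicate block and leaving out each library. Gene positions and exon lengths are from GENCODE M21 (GRCm38), which may differ from the authors' annotation, and 18 members share exonic bases with a gene of the opposite strand. Promoters are RefSeq's on GRCm38.p6. Some members are not reported here.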

Additional observations from a re-analysis of the deposited data

Results flagged for a closer look

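The effect of FSH24 differed between 10 and 1 ng/ml for 5 members, each concentration against its own untreated libraries, by edgeR's test of the difference itself. The log2 differences were 0.63 (SE 0.11) for Thbs1, 0.51 (SE 0.10) for Lamb2, 0.62 (SE 0.13) for Col18a1, 1.14 (SE 0.24) for Col8a1 and 2.37 (SE 0.54) for Col17a1. The edgeR adjusted p-values were 0.00407, 0.00799, 0.0172, 0.0235 and 0.0241 in that order. At 1 ng/ml the effect on Thbs1, Lamb2, Col18a1 and Col17a1 lay below 0, and none of those values was called. Concentration and number set cannot be told apart in the treated libraries, and without the 3 libraries numbered 2 the calls for Lamb2, Col18a1 and Col17a1 were lost, at log2 differences of 0.41, 0.58 and 2.35 (edgeR adjusted p = 0.0576, 0.109 and 0.0894). The Col8a1 call held there but was lost in other alternatives. Among these were the fits without the low-count filter (edgeR adjusted p = 0.0668) and without FSH24 library 4 at 10 ng/ml (0.0739). The Col17a1 call was lost in other fits too. One left out FSH24 library 6 at 1 ng/ml, which had the highest surface epithelium sum, and gave 2.09 (edgeR adjusted p = 0.0537). The Thbs1, Lamb2, Col18a1 and Col8a1 calls were not lost in that fit.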

How the results depend on the processing

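Of 1581 values recomputed under alternatives, 1445 kept direction and side of the threshold, 58 were no longer called, 60 became called and 18 changed sign, none of them while called. The calls of Col8a1, Col17a1, Col11a1 and Thbs1 with both forms at 10 ng/ml, of Col18a1 with FSH21 and of Lama3 with FSH24 held in all 14 alternatives tried for each. With the replicate number as a block, called members came to 21 for FSH21 and 19 (13 higher, 6 lower; 13.6% of all genes) for FSH24 at 10 ng/ml (adding Col4a5, Col6a1, Col6a2, Lama1, Agrn and Thbs2 higher and Col9a2, Col16a1, Col27a1, Lamc3 and Nid2 lower), 4 (1.21% of all genes) for FSH21 at 1 ng/ml (Lama3 higher, Col11a1, Col9a2 and Col27a1 lower), 2 (0.945% of all genes) for FSH21 against FSH24 at 1 ng/ml (Lama3 higher, Col9a2 lower), 4 (1.22% of all genes) for the concentration difference of FSH21 (Col17a1 and Col18a1 higher, Col11a1 and Col9a2 lower) and 12 for that of FSH24 (10 higher, 2 lower; 6.3% of all genes). With the block, 8.02% of all genes were called higher and 5.58% lower for FSH24 at 10 ng/ml. For the concentration difference of FSH24 the shares were 3.62% and 2.69%. Over 18 pairs of same-numbered libraries the correlations of deviations ran from 0.0496 to 0.235, 12 of them over 0.1, and each library correlated best with its own number, a hint from the data and not the design. DESeq2 called 1 member for FSH21 at 1 ng/ml, 2 between the forms at 1 ng/ml, 2 for the concentration difference of FSH21 and 8 for that of FSH24, where leaving out the number 2 libraries gave 2. Without the low-count filter, and with a minimum count of 50, 1 member, Col18a1, was called for the concentration difference of FSH21. Leaving out 1 library in turn gave 7 to 18 calls for FSH21 and 6 to 9 for FSH24 at 10 ng/ml, 0 to 1 for FSH21 at 1 ng/ml, and 0 to 1 and 2 to 6 for the concentration differences of FSH21 and FSH24. The cause of these changes, the smaller number of libraries included, was not tested. Other scalings gave 11 and 12 calls for FSH21 and 8 and 8 for FSH24 at 10 ng/ml. Shares of all genes are not given here for DESeq2, the other filters and scalings and the fits without 1 library. Their counts therefore do not speak of the members alone.

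Values that changed sign were uncalled, and some of their ranges reached well away from 0. With 1 library left out they ran, at 1 ng/ml, from -0.16 to 0.22 for Col17a1, -0.15 to 0.00087 for Col18a1 and -0.064 to 0.32 for Col6a2 with FSH21, and from -0.47 to 0.027 for Col17a1, -0.24 to 0.25 for Col24a1 and -0.19 to 0.11 for Lama3 with FSH24. At 10 ng/ml they ran from -0.58 to 0.054 for Col7a1 with FSH21, and with FSH24 from -0.37 to 0.26 for Col7a1, -0.44 to 0.035 for Col3a1, -0.37 to 0.044 for Hspg2, -0.12 to 0.0064 for Col25a1 and -0.13 to 0.11 for Lamc1. Without the 3 number 2 libraries Lamc1 with FSH24 stood at -0.033. Depth limits Lamb3 and Col17a1, which have few counts per library.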
